A study of Homo sapiens with 8 samples.

Results

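The HOX genes of clusters A, B, C and D encode homeodomain transcription factors, and 38 of them were examined here among the 25702 genes listed in the count tables. They were taken by name, without use of any measured value, and their symbols were matched to the NCBI gene numbers of the tables. All 38 were found. Cluster A (chromosome 7) contributed 10 genes, cluster B (chromosome 17) 10, cluster C (chromosome 12) 9 and cluster D (chromosome 2) 9.

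RNA-seq was performed on SUIT2, an established human pancreatic ductal adenocarcinoma (PDA) cell line of epithelial type, in 8 libraries. Of these, 4 are labelled shScr (cells given a scramble shRNA), 2 shEN1 #1 and 2 shEN1 #2, the shEN1 libraries being from cells given 1 of 2 shRNA constructs against *EN1*, a homeobox transcription factor outside the HOX clusters. All groups thus share the same line and an shRNA, and cells without an shRNA were not analysed here. The sources used here state neither separate cultures for the replicates nor whether the transduced cells were clones, so p-values measure only the spread between these libraries.

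HOX clusters are read along the body axis in the order in which their genes lie: genes at the 3′ end of a cluster act towards the head and those at the 5′ end towards the tail and the distal limb. Genes that hold the same place in different clusters are paralogs and carry the same number, from the low numbers at the 3′ end to 13 at the 5′ end. Their proteins bind DNA with cofactors of the TALE homeodomain families (PBX, MEIS and PKNOX), and adult cell types and cell lines keep characteristic combinations of active HOX genes.

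The clusters also carry microRNA genes whose products can pair with HOX transcripts, and these sequences are shown because the same seed recurs in transcripts from several of the clusters. They are RefSeq mature sequences (GRCh38.p14), written 5′ to 3′, with the seed (bases 2 to 8) in capitals. MiR-196a is made from *MIR196A1* in HOXB (chr17:48632532-48632553, minus strand) and *MIR196A2* in HOXC (chr12:53991762-53991783, plus strand), miR-196b from *MIR196B* in HOXA (chr7:27169528-27169549, minus strand), and miR-10a from *MIR10A* in HOXB (chr17:48579904-48579926, minus strand).
hsa-miR-196a-5p: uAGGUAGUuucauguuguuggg
hsa-miR-196b-5p: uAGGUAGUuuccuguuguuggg
hsa-miR-10a-5p: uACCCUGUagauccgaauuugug

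MiR-196a and miR-196b share the seed AGGUAGU. The DNA letters that pair with it, ACTACCT on the transcript strand, were present in the annotated 3′ UTR of 8 of the 38 HOX genes (*HOXA5*, *HOXA7*, *HOXA9*, *HOXB1*, *HOXB6*, *HOXB7*, *HOXB13* and *HOXC8*) and of 1331 of 19064 genes in all (6.98%). Their median 3′ UTR length was 887 bases for the HOX genes and 1068 bases for all genes. For the miR-10 seed the letters ACAGGGT were present in 2 of the 38 (*HOXA3* and *HOXB3*) and in 2404 of the 19064 genes (12.6%). The following sites in GRCh37 lie in genes read at very different levels in SUIT2, with the letters opposite the seed in capitals. They are at chr7:27194049-27194070 (minus strand) in *HOXA7*, chr7:27202873-27202894 (minus) in *HOXA9*, chr17:46673296-46673317 (minus) in *HOXB6*, chr17:46684976-46684997 (minus) in *HOXB7*, chr12:54405279-54405300 (plus) in *HOXC8* and, for miR-10, chr7:27147227-27147249 (minus) in *HOXA3*.
HOXA7 site: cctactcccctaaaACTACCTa
HOXA9 site: acaaaaggaaagaaACTACCTt
HOXB6 site: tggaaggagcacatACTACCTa
HOXB7 site: aacactgaaaaaatACTACCTa
HOXC8 site: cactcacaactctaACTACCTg
HOXA3 site: actctttgatcagaaACAGGGTa

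A match of letters is a description and not a measured interaction. The mature miRNAs were not measured, since the libraries were made from polyadenylated RNA, and reads assigned to the miRNA genes were few: 6 to 41 counts per library for *MIR196B*, 2 to 12 for *MIR196A1*, 0 to 4 for *MIR10A* and 0 in every library for *MIR196A2*.

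The deposited libraries held 33423590 to 37810604 counts each. Levels are given as CPM, read counts divided by the TMM-scaled total of the library and expressed per 1000000. If counts are independent, a count of 0 allows a level of up to 3 counts, for counting error only. This is 0.0793 to 0.0898 CPM of these totals. Of the counts from 1 to 10 in a library, 70.5% to 74.8% were even, against 49.1% to 51.1% of counts of 1000 or more, so low counts may rest on fewer independent fragments than their size. The limit for a count of 0 would then be higher. In a principal component analysis of all tested genes, the first component (44.4% of the variance) set shScr replicate 4 (59.2) and shEN1 #2 replicate 1 (62.1), as labelled, away from the remaining 6 libraries (-27.6 to -9.15). On the second component (17.5%) shScr replicate 3 (-39.3) and shEN1 #1 replicate 1 (-30.6) lay at one end. All 6 epithelial markers (*EPCAM*, *CDH1*, *KRT7*, *KRT8*, *KRT18*, *KRT19*) were above 1 CPM in every library, with a summed level of 11690 to 15900 CPM in the shScr-labelled libraries and 11440 to 18540 CPM in those labelled shEN1. Of the fibroblast markers, *COL1A2*, *COL3A1*, *LUM* and *DCN* were at 0 in every library and the list summed to 1.27 to 4.22 and 1.17 to 2.74 CPM in the 2 groups. Of the 5 immune markers, *PTPRC* and *CD3E* were at 0 throughout, while the macrophage and lysosome gene *CD68* was at 7.74 to 34.6 CPM and the list summed to 9.34 to 28.2 and 8.02 to 34.8 CPM. Of the 4 endothelial markers *CDH5* and *KDR* were at 0 and the list summed to at most 0.676 CPM. The acinar list summed to at most 1.41 CPM. Of the endocrine list, *INS* and *GCG* were at 0 and *CHGA* had at most 8 counts.

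The targeted gene went against its labels. *EN1* was at 4.10, 4.50, 4.93 and 2.51 CPM in shScr-labelled replicates 1 to 4, at 5.77 and 5.41 CPM in those labelled shEN1 #1 and at 1.35 and 6.70 CPM in those labelled shEN1 #2. Only shEN1 #2 replicate 1 was below all shScr-labelled libraries, and the groups overlapped. The log2 fold change was 0.26 (standard error 0.43, exact two-sided permutation test over 70 assignments of the CPM, p = 0.543). Directions given between groups are therefore directions between labels.

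SUIT2 expressed HOX genes of clusters A, B and C and very little of cluster D. In every library, 12 of the 38 genes were at 1 CPM or more: *HOXA3*, *HOXA10* and *HOXA13* of cluster A, *HOXB3*, *HOXB5*, *HOXB6*, *HOXB7*, *HOXB9* and *HOXB13* of cluster B, *HOXC6*, *HOXC8* and *HOXC9* of cluster C, and 0 of the 9 genes of cluster D. *HOXA11*, *HOXB1*, *HOXC12* and *HOXD11* had 0 counts in all 8 libraries, 1 in each cluster. The other 22 lay between these levels. In bulk RNA a low level in all cells and a higher level in fewer cells cannot be told apart. At a minimum of 0.5 CPM the first number was 15, and at 2 CPM it was 9.

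The 38 genes summed to 151.0 ± 11.7 CPM (SD, n = 8), with 152.8 ± 14.3 CPM in the shScr-labelled libraries and 149.2 ± 10.4 CPM (SD, n = 4 each) in those labelled shEN1, a difference smaller than the spread within either group. Cluster B held 83.2 ± 5.59 CPM and 52.0% to 56.4% of the HOX reads of a library. Cluster A held 52.0 ± 5.06 CPM (31.7% to 36.8%), cluster C 14.9 ± 3.93 CPM (7.06% to 12.5%) and cluster D 0.872 ± 0.595 CPM (0% to 1.19%). The order B, A, C, D was the same in all 8 libraries. Between 51.4% and 63.4% of the HOX reads of a library came from *HOXB6*, *HOXA10* and *HOXB7* alone.

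**Figure D1:**
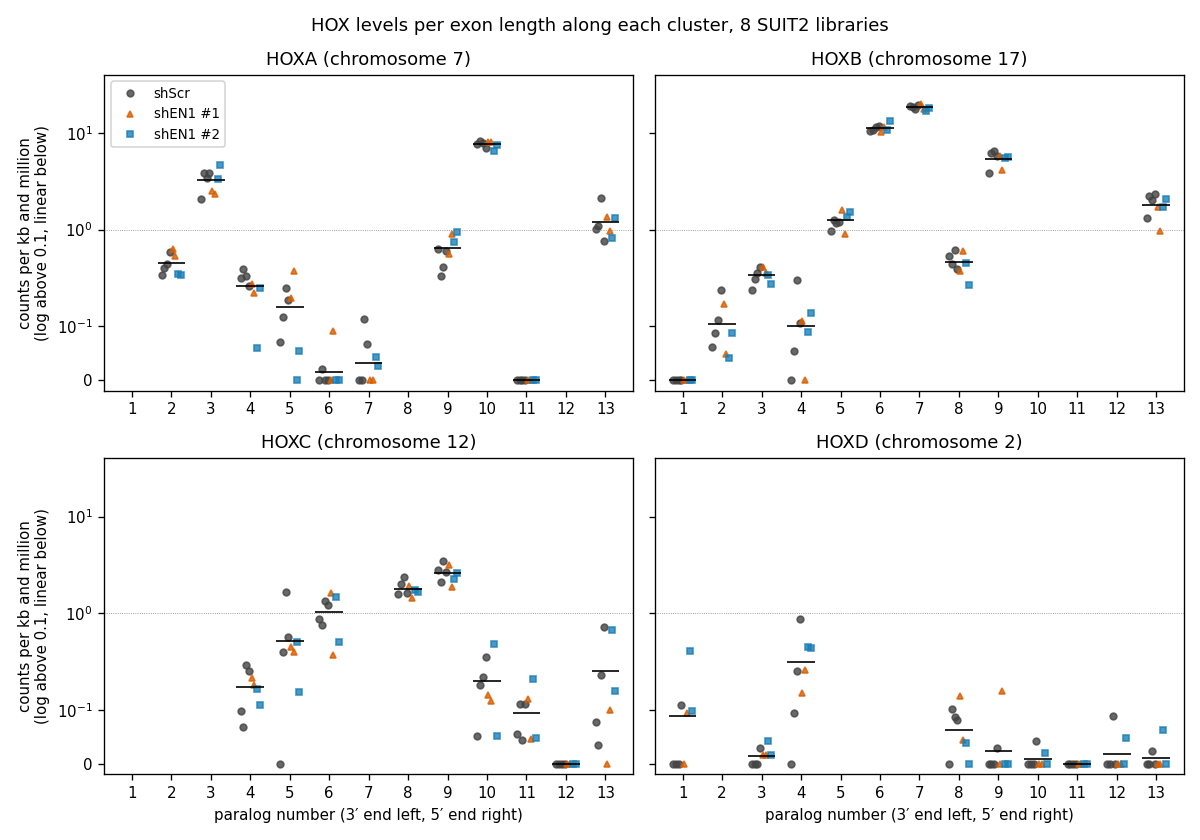
Level of each of the 38 HOX genes as CPM per kb of exon (vertical axis, logarithmic above 0.1 and linear below) against its paralog number, with 1 panel per cluster. Each point is 1 of the 8 libraries, marked by its label, the black bar is their mean, and the dotted line is at 1. Paralog numbers without points have no gene in that cluster or none examined here. The highest means are those of HOXB7 (18.4) and HOXB6 (11.3), and the HOXD panel holds no mean above 0.313.

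Because reads scale with transcript length, genes were compared with each other per kb of annotated exon. On that scale 11 genes had a mean of at least 1 CPM per kb of exon. *HOXB7* was highest at 18.4 ± 1.02 (SD, n = 8), followed by *HOXB6* at 11.3 ± 0.998, *HOXA10* at 7.62 ± 0.568 and *HOXB9* at 5.42 ± 0.947. The libraries of *HOXB7* (16.99 to 19.9), *HOXB6* (10.3 to 13.4) and *HOXA10* (6.58 to 8.26) did not overlap, and those of *HOXA10* and *HOXB9* (3.82 to 6.51) were separated by less than 1 SD of either gene. Further down the order, *HOXB9*, *HOXA3* (3.25 ± 0.875) and *HOXC9* (2.62 ± 0.535) overlapped from neighbour to neighbour. *HOXB13* (1.80 ± 0.469) and *HOXC8* (1.79 ± 0.299) did not differ beyond their spread, nor did *HOXB5* (1.24 ± 0.244), *HOXA13* (1.18 ± 0.437) and *HOXC6* (1.02 ± 0.465). With the longest transcript in place of all exons the same number, 11, reached a mean of 1, and the means of the leading genes were 20.5 for *HOXB7*, 15.0 for *HOXB6* and 11.1 for *HOXA10*. Of the exon bases of *HOXB6*, 32.9% are shared with *HOXB3* or the antisense gene *HOXB-AS3*, and reads there cannot be assigned with certainty because the strand setting of the counting is not stated.

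By paralog number, most reads came from the middle and the upper part of the series. Group 6 (*HOXA6*, *HOXB6*, *HOXC6*) summed to 32.99 ± 2.31 CPM, group 10 to 28.7 ± 1.83, group 7 to 27.97 ± 1.52, group 9 to 20.4 ± 2.53, group 3 to 16.5 ± 3.80 and group 13 to 12.1 ± 2.84 (SD, n = 8). Groups 1, 2, 4, 11 and 12 had no examined member at 1 CPM in every library. Group 2 summed to 1.32 ± 0.409 CPM, group 4 to 1.49 ± 0.551, group 11 to 0.310 ± 0.192 and group 12 to 0.0440 ± 0.0864, and in group 1 *HOXB1* and *HOXD1* summed to 0.167 ± 0.259 CPM. In groups 6, 7 and 10 a single paralog led per kb of exon. Mean levels were 11.3 CPM per kb for *HOXB6*, 1.02 for *HOXC6* and 0.0141 for *HOXA6* in group 6. In group 7 they were 18.4 CPM per kb for *HOXB7* and 0.0316 for *HOXA7*, and in group 10 they were 7.62 for *HOXA10*, 0.200 for *HOXC10* and 0.00791 for *HOXD10*. In group 13, by contrast, *HOXA13* and *HOXB13* were read at overlapping levels per kb.

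Cluster A was read at separate places rather than as a block. *HOXA10* (chr7:27210224-27219880 of GRCh37, minus strand), which patterns the reproductive tract and lumbar region, was at 28.2, 30.6, 29.1 and 25.96 CPM in shScr-labelled replicates 1 to 4, at 29.6 and 29.9 CPM in those labelled shEN1 #1 and at 24.4 and 28.1 CPM in those labelled shEN1 #2. It varied little, and its lowest libraries in CPM were shEN1 #2 replicate 1 and shScr replicate 4, the latter by a margin within counting error. Its 5′ neighbour *HOXA11* (chr7:27220776-27224851), a gene of limb and kidney development, had 0 counts in all 8 libraries, where *HOXA10* had 915 to 1135. At the 5′ end *HOXA13*, which acts in the hindgut and distal limb, was again present.

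*HOXA13* was at 5.15, 5.58, 10.8 and 3.84 CPM in the shScr-labelled libraries, at 6.89 and 4.85 CPM in those labelled shEN1 #1 and at 4.19 and 6.76 CPM in those labelled shEN1 #2. The value of shScr replicate 3 was the highest and the groups overlapped. *HOXA3*, a gene of the pharyngeal arches and thymus, was at 9.01, 16.4, 14.8 and 16.7 CPM in the shScr-labelled libraries, at 10.8 and 10 CPM in those labelled shEN1 #1 and at 14.3 and 19.8 CPM in those labelled shEN1 #2. Both shEN1 #1 libraries lay near shScr replicate 1, the lowest, and the highest value was in shEN1 #2 replicate 2. Of its exon bases, 17.3% are shared with other annotated genes.

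The remaining genes of cluster A were low. *HOXA9*, active in blood progenitors, was at 1.90, 0.998, 1.23 and 1.84 CPM in the shScr-labelled libraries and at 1.71, 2.71, 2.26 and 2.86 CPM in those labelled shEN1, so that shEN1 #1 replicate 1 overlapped the shScr-labelled libraries. *HOXA2*, the main gene of the second pharyngeal arch, was at 0.783 to 1.48 CPM. *HOXA4* had 4 to 25 counts, *HOXA6* 0 to 4 and *HOXA7* 0 to 10, the last with 62.5% of its exon bases shared with other genes. *HOXA5*, needed for lung development, had 4, 8, 15 and 12 counts in the shScr-labelled libraries, 12 and 22 in those labelled shEN1 #1 and 0 and 3 in those labelled shEN1 #2.

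Cluster B was led by *HOXB6*, *HOXB7* and *HOXB9* and had 3 others at 1 CPM or more in every library, *HOXB3*, *HOXB5* and *HOXB13*. *HOXB7* (chr17:46684594-46710934, minus strand) was at 28.9, 28.1, 26.6 and 29.5 CPM in the shScr-labelled libraries, at 30.2 and 26.7 CPM in those labelled shEN1 #1 and at 25.8 and 27.2 CPM in those labelled shEN1 #2. *HOXB6* (chr17:46673113-46682354, minus strand) was at 27.2, 28.01, 29.8 and 30.8 CPM, at 26.9 and 29.7 CPM and at 28.2 and 34.9 CPM in the same order. Both are genes of trunk patterning, and their highest library was at most 1.30 times the lowest. *HOXB9*, a gene of the thoracic skeleton, was at 9.88, 16.1, 16.8 and 14.8 CPM in the shScr-labelled libraries, at 15.0 and 10.7 CPM in those labelled shEN1 #1 and at 14.2 and 14.7 CPM in those labelled shEN1 #2. Its low libraries were shScr replicate 1 and shEN1 #1 replicate 2.

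*HOXB8*, between *HOXB7* and *HOXB9*, was at 0.645 to 1.46 CPM (0.459 ± 0.118 CPM per kb, SD, n = 8), well below both neighbours. *HOXB5* was at 1.68 to 2.996 CPM and *HOXB3* at 1.78 to 3.07 CPM. *HOXB13*, known for its part in prostate and tail development, was at 2.91 to 7.04 CPM, and its lowest libraries were again shEN1 #1 replicate 2 and shScr replicate 1. *HOXB2* had 4 to 22 counts and *HOXB4* 0 to 21. *HOXB1*, the hindbrain gene at the 3′ end, had 0 counts throughout, which allows up to 0.0793 to 0.0898 CPM if counts are independent.

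Cluster C was read mainly at *HOXC6*, *HOXC8* and *HOXC9*, genes of trunk patterning. *HOXC9* was at 4.70, 3.505, 5.77 and 4.43 CPM in the shScr-labelled libraries, at 5.32 and 3.15 CPM in those labelled shEN1 #1 and at 3.78 and 4.30 CPM in those labelled shEN1 #2. *HOXC8* was at 3.83, 4.88, 5.71 and 3.90 CPM, at 4.68 and 3.44 CPM and at 4.19 and 4.05 CPM in the same order. For both the highest library was shScr replicate 3 and the lowest shEN1 #1 replicate 2. *HOXC6* was at 2.98, 2.59, 4.65 and 4.19 CPM in the shScr-labelled libraries, at 5.63 and 1.26 CPM in those labelled shEN1 #1 and at 5.13 and 1.75 CPM in those labelled shEN1 #2. Here each construct had 1 library above and 1 below all shScr-labelled libraries, a 4.45-fold range.

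The 5′ genes of cluster C were near the limit of detection in most libraries. *HOXC13*, which acts in hair and nail, had 6, 3, 19 and 64 counts in the shScr-labelled libraries, 0 and 8 in those labelled shEN1 #1 and 63 and 12 in those labelled shEN1 #2. The libraries with 64 and 63 counts are the pair that the first component set apart. *HOXC10* had 4 to 45 counts, *HOXC11* 5 to 27 and *HOXC12* 0 throughout. At the 3′ end *HOXC4* had 7 to 28 counts and *HOXC5* 0 to 94, the 94 in shScr replicate 3.

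In cluster D, 9 of the 9 genes were under 1 CPM in every library. *HOXD4*, a gene of the hindbrain and neck vertebrae, was the highest per kb at 0.313 ± 0.273 (SD, n = 8) CPM per kb and the only one with enough counts to be tested. Its counts were 0, 4, 10 and 37 in the shScr-labelled libraries, 6 and 10 in those labelled shEN1 #1 and 20 and 16 in those labelled shEN1 #2. *HOXD1* had 0, 0, 0 and 8 counts, 0 and 6, and 30 and 6 in the same order. The others had at most 6 counts (*HOXD3*), 13 (*HOXD8*), 10 (*HOXD9*), 4 (*HOXD10*), 8 (*HOXD12*) and 6 (*HOXD13*, the gene of digit patterning), and *HOXD11* had 0.

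**Figure D2:**
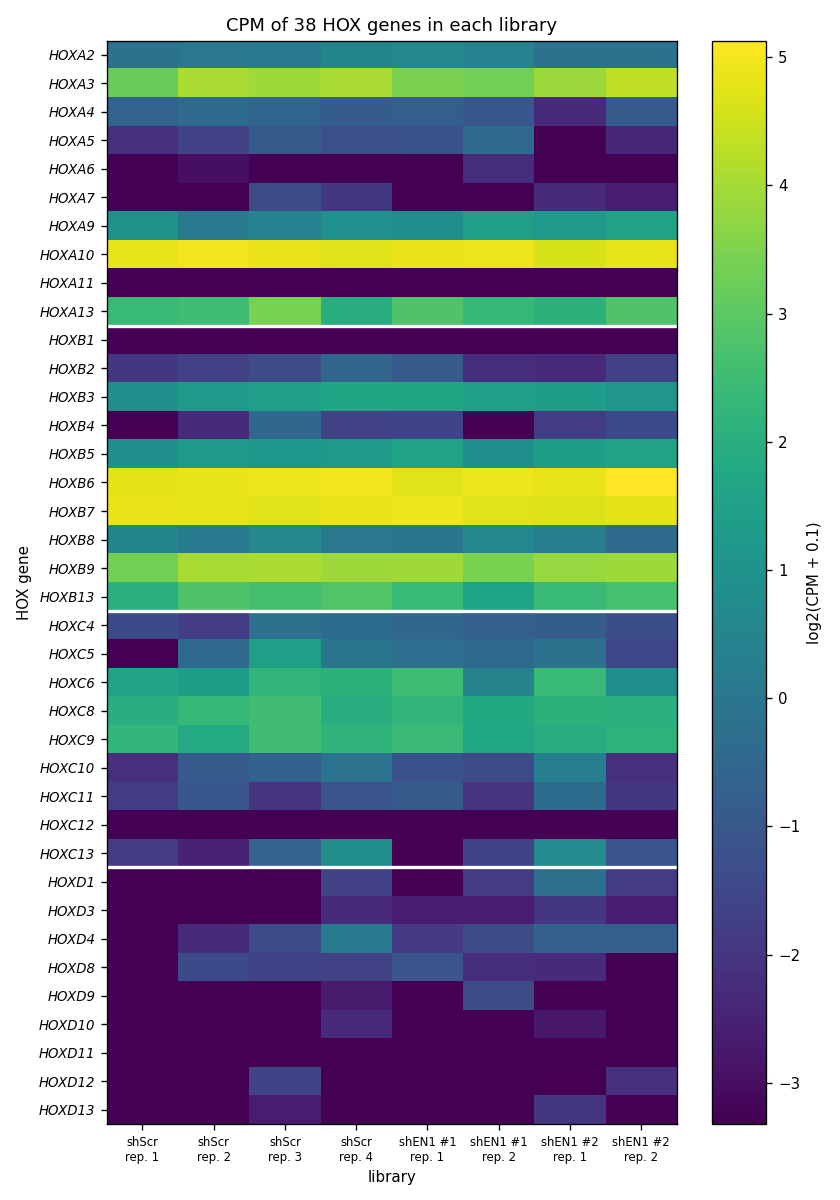
Heat map of log2(CPM + 0.1) for the 38 HOX genes (rows, by cluster and paralog number, clusters separated by white lines) in the 8 libraries (columns, by label). HOXA10, HOXB6 and HOXB7 are bright in every column, HOXA11, HOXB1, HOXC12 and HOXD11 are at 0 in every column, and HOXC13 is brighter in shScr replicate 4 and shEN1 #2 replicate 1 than in the other 6.

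The comparison of the labels asked whether HOX genes changed with the *EN1* shRNAs. Of the 38 genes, 23 passed the filter on low counts (7 of cluster A, 7 of B, 8 of C and 1 of D) and were tested with all 14333 genes that passed it. Between the shEN1- and shScr-labelled libraries, edgeR's quasi-likelihood test gave 0 of the 23 genes an adjusted p below 0.05, and 0 of all genes tested (0%). At an unadjusted p below 0.05 in the same test there were 0 of the 23, against 44 of the 14333 genes (0.307%). If no gene changed, a share near the 0.05 threshold would be expected, and the share found was far below it. The 0 of 23 therefore does not show that HOX genes were unaffected. DESeq2 also called 0 of the HOX genes, and 2 genes in all. By sign, 8 of the 23 were higher and 15 lower under the shEN1 labels, with a median log2 fold change of -0.05 beside -0.0028 over all genes tested, of which 48.9% were higher. All 8 libraries of a gene were never fully separated by label: 0 of the 23 had every shEN1-labelled library above every shScr-labelled library (0.167% of all genes tested) and 0 had the reverse (0.251%).

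For the most highly read genes the differences between labels were small and their errors narrow. The log2 fold change was -0.02 for *HOXA10* (standard error 0.12), 0.05 for *HOXB6* (0.12) and -0.04 for *HOXB7* (0.11). It was -0.05 for *HOXA3* (0.26), -0.16 for *HOXA13* (0.33) and -0.08 for *HOXB9* (0.20). In cluster C it was -0.15 for *HOXC9* (0.25), -0.16 for *HOXC8* (0.23) and -0.06 for *HOXC6* (0.47). For *HOXD4* (0.07, standard error 0.93) and *HOXA5* (-0.03, standard error 0.91) the error was so wide that a change of 2-fold in either direction lay within 2 standard errors. Each of these 11 had an adjusted p of 1.00 in edgeR's quasi-likelihood test. Over all 23 the fold changes ran from -0.80 for *HOXC5* (standard error 0.95) to 0.67 for *HOXA9* (standard error 0.33). For *HOXA9* the unadjusted p was 0.0671 and the adjusted p was 1.00 in edgeR's quasi-likelihood test. Without the pair of libraries that the first component set apart, *HOXA3* (0.0100), *HOXB7* (0.0077) and *HOXA5* (0.48) changed sign and 0 HOX genes were called.

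**Figure D3:**
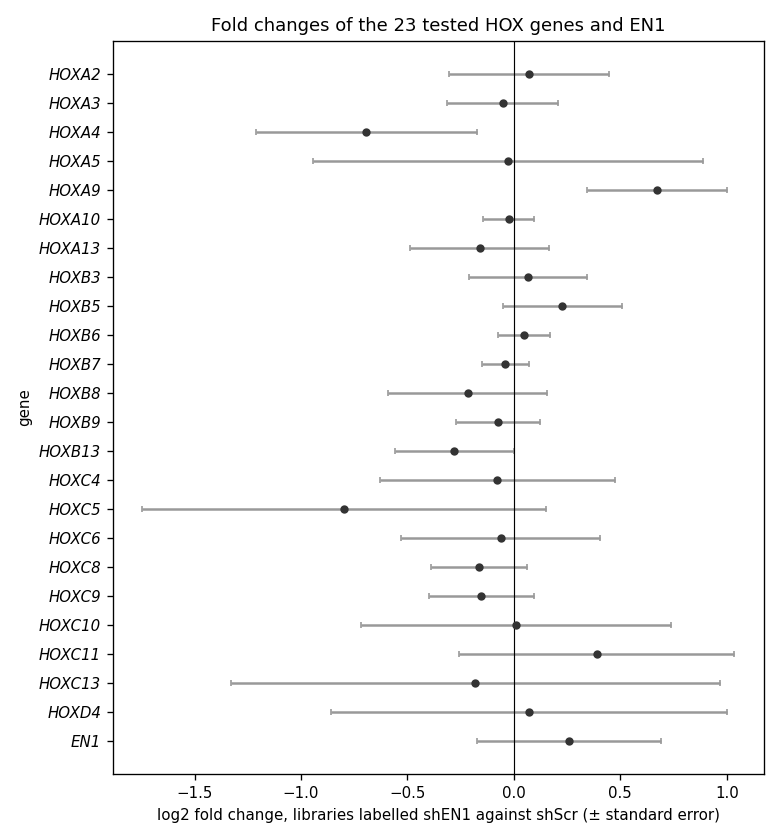
Log2 fold change of the 23 tested HOX genes and EN1 between the shEN1- and shScr-labelled libraries (n = 4 each), with bars of 1 standard error from edgeR's quasi-likelihood fit. HOXA10, HOXB6 and HOXB7 lie within 0.05 of 0 with the shortest bars, and the points run from -0.80 for HOXC5 to 0.67 for HOXA9.

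With the constructs apart, in a fit of 3 groups, 0 of the 23 HOX genes had an adjusted p below 0.05 in any of the 3 comparisons by edgeR or by DESeq2 (0% of all genes by edgeR). The comparisons share libraries and are not independent of each other. Between shEN1 #1 and shScr, 0 of the 23 had an unadjusted p below 0.05 (0.656% of all genes). Between shEN1 #2 and shScr there was 1, *HOXA5* (unadjusted p = 0.0471, adjusted p = 1.00 in edgeR's quasi-likelihood test), where 0.3% of all genes passed. Between shEN1 #2 and shEN1 #1 there were 2, *HOXA5* (unadjusted p = 0.0181) and *HOXA3* (log2 fold change 0.71, standard error 0.32, unadjusted p = 0.0495), both with an adjusted p of 1.00 in edgeR's quasi-likelihood test, where 1.07% of all genes passed. For *HOXA5* no fold change of shEN1 #2 is given, because both shEN1 #2 libraries were at or under 3 counts and the fitted value depends on the prior count. *HOXA5* reached the minimum count of the filter in both shEN1 #1 libraries and in some shScr libraries, but in no shEN1 #2 library. It was thus tested only because of the groups in which it was higher. No conclusion is therefore drawn from its unadjusted p-values for shEN1 #2. The *HOXA5* values given for the pooled labels rest partly on the same counts and serve only to show how far they move between settings.

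In 14 of the 23 tested HOX genes the highest library was at least 2 times the lowest, against 35.8% of all genes tested. This share follows the level: it was 10 of the 11 HOX genes with a mean under 2 CPM, where 94.7% of all genes showed it, and 1 of the 5 at 10 CPM or more, where 14.9% did. That 1 gene was *HOXA3*, at 2.203-fold, while *HOXB7* (1.17-fold), *HOXA10* (1.26-fold) and *HOXB6* (1.30-fold) were among the steadiest.

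**Figure D4:**
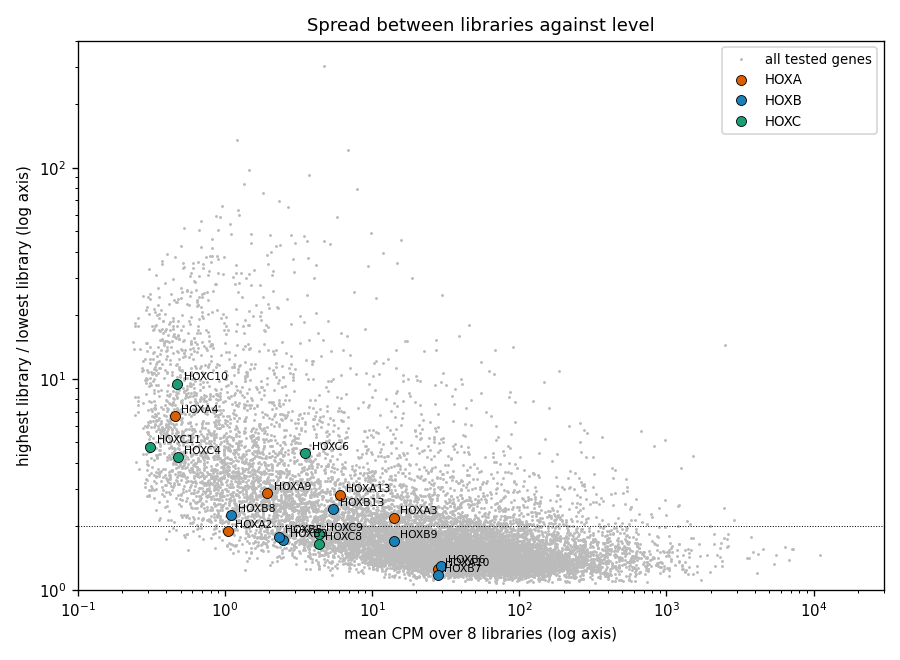
Ratio of the highest to the lowest library (vertical, logarithmic) against the mean CPM over 8 libraries (horizontal, logarithmic) for the tested genes with counts in every library: 14132 of all genes (grey) and 19 HOX genes (coloured by cluster). The dotted line is at 2. HOXB7, HOXA10 and HOXB6 lie near the lower edge at their level, and HOXC6 stands at 4.45.

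The pair of libraries that the first component set apart, shScr replicate 4 and shEN1 #2 replicate 1, held the highest CPM values for 6 of the 38 genes, all in clusters C and D: *HOXC10*, *HOXC13*, *HOXD1*, *HOXD3*, *HOXD4* and *HOXD10*. For *HOXD3* (4 and 6 counts, against 0 to 2) and *HOXD10* (4 and 2 counts, against 0) these ranks rest on differences within counting error. The same holds for the margin to the nearest library of *HOXD1* (8 and 30 counts, against 0 to 6) and *HOXD4* (37 and 20 counts, against 0 to 16). The pair held the lowest CPM values for 2, *HOXA10* and *HOXA13*, and for both the margin to the nearest library was again within counting error. *HOXA13* had 144 and 165 counts, against 165 to 376. *HOXA10* had 973 and 960 counts, against 915 to 1135, so its rank depended on the TMM scaling. Among the 23 tested genes the pair lay above the other libraries for 3 and below for 2, beside 18.9% and 19.2% of all genes tested. *EN1* was also lowest in this pair (94 and 53 counts, against 136 to 218). So were 4 of the 6 epithelial markers: *EPCAM* (234.2 and 240.8 CPM, against 365.8 to 589.2), *CDH1* (124.1 and 103.0 CPM, against 156.5 to 256.3), *KRT7* (198.2 and 191.7 CPM, against 533.3 to 1079) and *KRT19* (400.1 and 320.7 CPM, against 831.2 to 1648). *KRT8* and *KRT18*, which make up most of the summed epithelial level, lay within the range of the other libraries, and *CD68* was lowest in the pair (8.38 and 7.74 CPM, against 16.7 to 34.6). The part of these differences in the HOX values was not tested. The labels give no batch, and what sets the pair apart was not tested.

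Of the RNAs that lie antisense to or between the HOX genes, 9 of the 18 listed had a row in the tables and 6 were tested. *HOTAIRM1*, beside the 3′ end of HOXA, stood out at 21.3 to 32.6 CPM and 17.3 CPM per kb of all exons, close to *HOXB7* on that scale. Its exons cover 1496 bases and its longest transcript 889, so the level per kb depends on the length used. Exon bases that it shares with other genes were not computed. *HOTTIP*, at the 5′ end of HOXA beside *HOXA13*, had 17 to 70 counts and *HOTAIR*, in HOXC, 4 to 18. *HAGLR*, in HOXD, had 21, 37, 28 and 118 counts in the shScr-labelled libraries, 19 and 27 in those labelled shEN1 #1 and 132 and 24 in those labelled shEN1 #2, and so was highest in the same pair of libraries as *HOXC13*. Of the 6 tested, 2 were higher and 4 lower under the shEN1 labels, and 0 were called.

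The cofactors through which HOX proteins bind DNA were present. Of the 9 TALE genes, 6 were at 1 CPM or more in every library, and *PKNOX2* had at most 2 counts. The highest mean CPM were those of *PKNOX1* (21.9 to 33 CPM), *MEIS2* (12.3 to 27.7 CPM) and *MEIS1* (13.71 to 24.4 CPM). Per kb of exon, *PKNOX1* (mean 3.41) was followed by *PBX3* (3.005), ahead of *MEIS2* (1.70) and *MEIS1* (1.64). The 8 tested had 5 higher and 3 lower values in the shEN1-labelled libraries, and 0 were called. Of the 8 ParaHox and EVX genes, which are the nearest relatives of the HOX genes, the pancreatic and intestinal factors *PDX1* (13.97 to 23.7 CPM) and *CDX2* (11.4 to 21.9 CPM) were read, and *CDX1*, *CDX4*, *GSX1* and *EVX2* were at 0. *EVX1*, beyond *HOXA13*, had at most 4 counts. The 14 chromatin and retinoic acid genes listed as regulators of HOX clusters were all tested, and 12 of them were at 1 CPM or more in every library. In mean CPM the highest was *KMT2A*, the histone methyltransferase that keeps HOX genes active (121.2 to 220.7 CPM). It was followed by *DOT1L* (70.2 to 113.5 CPM) and *SUZ12*, a Polycomb subunit (76.9 to 103.9 CPM). Per kb of exon, *BMI1* (mean 16.19) and *SUZ12* (14.02) were highest among the 14. On that scale *KMT2A* (5.588), a gene with long exons in all, was below *DOT1L* (8.214) and *EZH2* (6.464). Of the 14, 8 were higher and 6 lower under the shEN1 labels, and 0 were called.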

How the data were processed

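For each library the authors deposited unnormalized read counts as whole numbers, 1 per gene. Per the methods and the submitters' processing notes, paired-end reads were aligned with HISAT2 (hg19 for human samples, although the notes list mm9) and counted with featureCounts. The annotation and strand setting are not given in the sources used here. Reads of overlapping genes are therefore uncertain, and the share of exon bases that each HOX gene shares with others was computed. Gene numbers were matched to symbols with a RefSeq table (23696 of 25702). Positions and exon lengths came from GENCODE lifted to GRCh37. Of the 39 HOX genes, 1 is not reported here, and protein sequences are not printed here.

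Genes were filtered with filterByExpr (minimum count 10), scaled by TMM and tested with glmQLFit and glmQLFTest of edgeR 4.0.16 in R 4.3.3, with Benjamini-Hochberg adjustment over all 14333 genes and a threshold of 0.05. Standard errors are the log2 fold change over the square root of F. The main comparison pooled both constructs, and a fit of 3 groups kept them apart. DESeq2 1.42.0 and limma-voom 3.58.1 were alternatives, with other scalings, filters and samples. Dividing counts by 2 was added after the values were seen. Fold changes and values by library were printed for the 3 tested genes of each cluster with the highest mean CPM and for genes with an unadjusted p below 0.05. *HOXA9*, *HOXC5*, *HOXC13*, *HOXD1* and *HAGLR* were singled out after their values were seen. The genes and lists were chosen with earlier results of these data known.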

Additional observations from a re-analysis of the deposited data

How the results depend on the processing

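In every alternative tried, 0 HOX genes were called. The number of genes called in all between the libraries labelled shEN1 and shScr moved from 0 to 2 with DESeq2, to 1 without the 2 libraries set apart by the first component, to 1 without the 4 libraries at the ends of the first and second components, and ranged from 0 to 1 when each library was left out (1 without shScr replicate 4). The number of HOX genes at 1 CPM or more in every library was 12 to 13, and of those with a 2-fold range 12 to 14, when each library was left out. With the constructs pooled, the log2 fold change of *EN1* stayed at or above 0.04 in all settings. With the constructs apart it was 0.48 for shEN1 #1 against shScr and -0.000224 for shEN1 #2 against shScr (standard error 0.53 for each). Fold changes near 0 changed sign in some settings, and the cause was not tested. In the fit of 3 groups *HOXD4* was at -0.035 and *HOXA5* at -0.86, and with limma-voom they were at 1.14 and -1.03. Without the 2 libraries, *HOXA3* was at 0.0100, *HOXB7* at 0.0077 and *HOXA5* at 0.48. Without the 4 libraries, *HOXA3* was at 0.22, *HOXA13* at 0.11 and *HOXC6* at -0.89. *HOXD4* did not pass the filter in either setting, nor *HOXA5* without the 4. Leaving out each library gave a log2 fold change of -0.067 to 0.034 for *HOXA10*, -0.28 to 0.068 for *HOXA3*, -0.34 to 0.22 for *HOXA13*, -0.034 to 0.096 for *HOXB6*, -0.22 to 0.023 for *HOXB9*, -0.40 to 0.22 for *HOXC6*, -0.33 to 1.44 for *HOXD4* and -0.92 to 0.40 for *HOXA5*. The 1.44 of *HOXD4* came without shScr replicate 4.

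Whether the replicate numbers pair the libraries was not settled. The correlations of same-numbered libraries, as deviations from their group means, ran from -0.33 to 0.44. They are not independent of each other, and differently numbered libraries were not compared. With the replicate number as a block (6 libraries), 1 gene and 0 HOX genes were called, and the log2 fold change was 0.15 for *HOXA3*, 0.080 for *HOXA13*, 0.087 for *HOXB9*, 0.019 for *HOXC9*, 0.63 for *HOXA5* and 2.80 for *HOXD4*, whose shScr libraries there had 0 and 4 counts. For HOX genes under 1 CPM, depth limits the comparison, since few counts lie behind each value.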
